A study of Mus musculus with 11 samples.

Results

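The genes described here were 3 catalytically active DNA methyltransferases (Dnmt1, Dnmt3a and Dnmt3b), the cofactor Dnmt3l and the maintenance factor Uhrf1. They were read on Illumina BeadChip arrays by 10 probes of 45281, 5 genes of 19057 with a named probe, taken as every probe whose annotation gives exactly 1 symbol equal to one of these 5 names. Dnmt1 had 1 probe, Dnmt3a had 3, and Dnmt3b, Dnmt3l and Uhrf1 had 2 each. Of these 10 probes, 7 were detected (detection p below 0.01) on at least 2 of the 11 arrays and were tested; the other 3 lay at background on all 11 arrays. In the germ line, the main changes lay between E13.5 and E15.5, when both measured Dnmt3a probes and both Dnmt3l probes rose steeply, while Dnmt3b rose over both intervals, Uhrf1 rose and then fell back in part, and Dnmt1 did not pass the test in any interval.

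The study sorted mouse gonad cells by fluorescence on green fluorescent protein driven by Pou5f1, a pluripotency and germ cell gene, so a germ cell here is a cell positive for that reporter. The 3 germ cell groups came from embryonic stages E11.5, E13.5 and E15.5, with 3 biological replicates each; the later stages are labelled male and E11.5 male/female. The GFP-negative fraction of male E13.5 gonads, with 2 replicates, was the non-germ control, and all groups came from one cross, with (CBA/CaJ X C57BL/6J)F16+ on one side and Hsd:ICR(CD-1) on the other. How many embryos went into each replicate is not given in the labels. Since the sexes labelled differ between E11.5 and the later stages, stage and sex cannot be told apart in comparisons with E11.5.

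DNA methylation in mammals is copied after replication and written anew by separate proteins. Dnmt1 copies the mark onto the new strand, and Uhrf1 binds hemimethylated DNA and brings Dnmt1 to it. Dnmt3a and Dnmt3b write methylation on unmethylated DNA, and Dnmt3l, which has no catalytic activity of its own, stimulates them and is required for methylation of the male mouse germ line. Mouse germ cells lose most of their DNA methylation around the time they settle in the gonad, and male germ cells begin to regain it before birth, after they have stopped dividing.

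Values are log2 of the background-corrected and quantile-normalized intensity, so a difference of 1 is a change of 2-fold, and each mean is given ± SD over 3 arrays (2 in the non-germ group). Between 14860 and 18657 probes were detected per array. Of 10 germ cell markers, 9 or 10 were detected on every germ cell array and 2 on each non-germ array, with only Nanog on both. One array stood apart. In E15.5 replicate 2, all 11 measured interstitial and mesenchymal markers were detected, at a mean of 9.87, against 6.44 and 6.53 in the other E15.5 replicates and 10.67 and 10.72 in the non-germ arrays; Sertoli markers stood at 8.32 against 6.05 and 6.66, and fetal Leydig markers at 9.27 against 6.52 and 6.03. Its germ cell markers stood at 11.09, against 11.52 and 11.55. The part of these cells in the results at E15.5 was not tested. The members' stage changes and the gene list counts from E13.5 to E15.5 are also given without that array. In sorted populations like these, a lower share of expressing cells and less RNA per cell cannot be told apart.

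**Figure D1:**
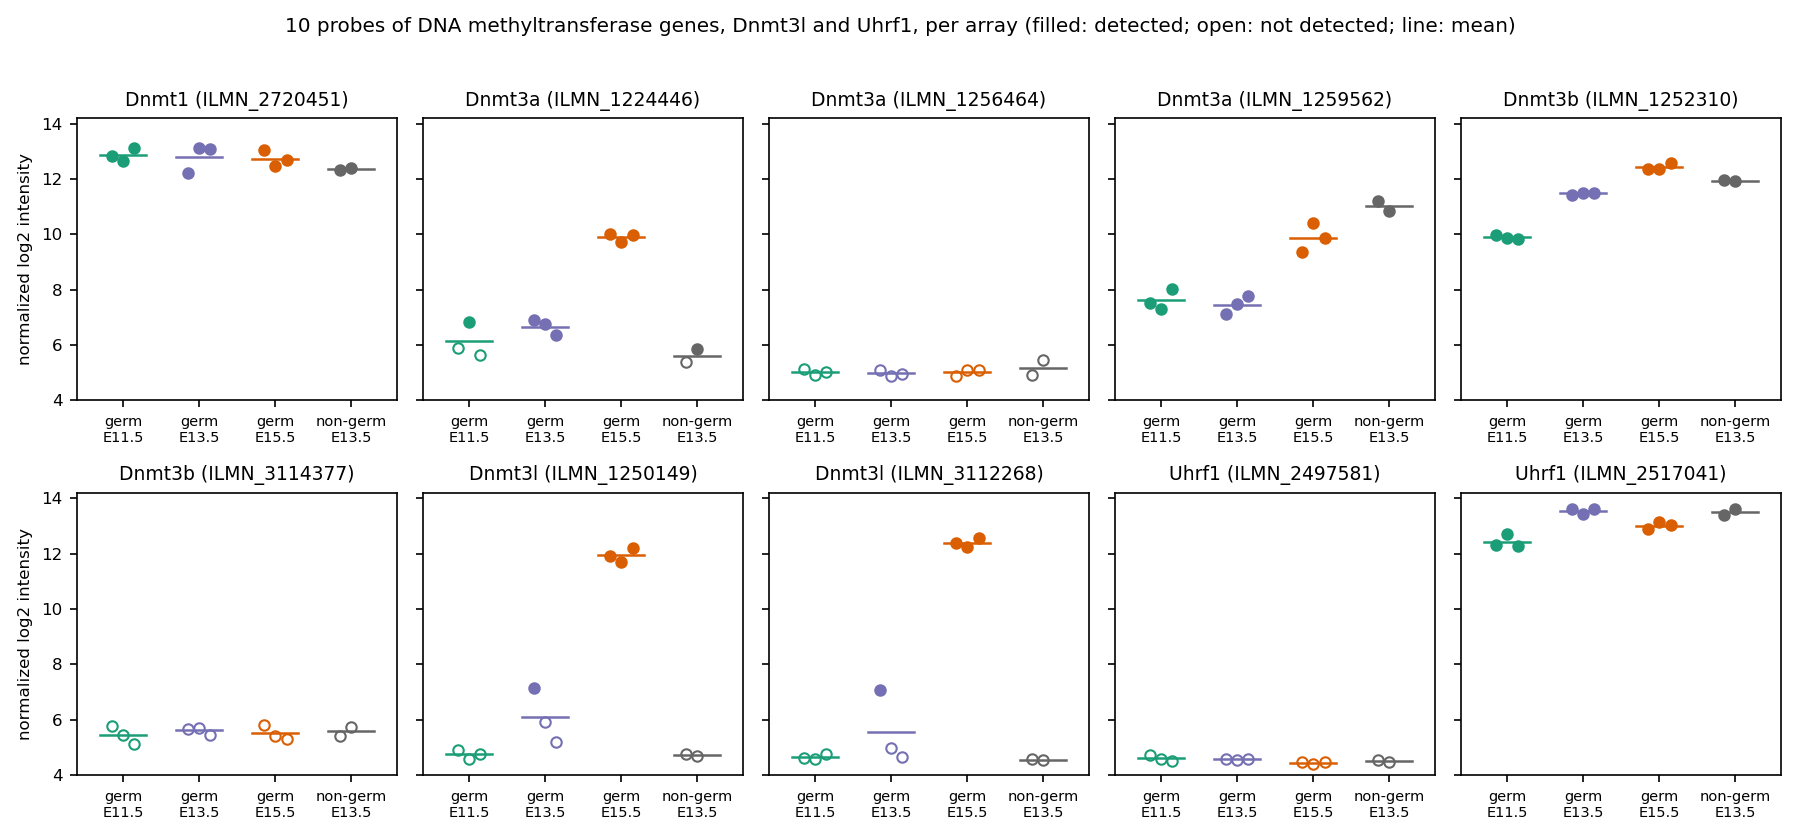
Normalized log2 intensity (vertical axis) of all 10 probes on each of the 11 arrays, by group (horizontal axis). Filled points were detected, open points were not, and lines are group means. Both Dnmt3l probes lie between 11.71 and 12.56 on the E15.5 arrays and were detected on only 1 other array, E13.5 replicate 1, while 1 probe each of Dnmt3a, Dnmt3b and Uhrf1 is open on every array.

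Maintenance was read by 1 tested probe for each gene. Dnmt1 (ILMN_2720451, designed on NM_010066) read 12.82, 12.64 and 13.11 on the E11.5 arrays, 12.21, 13.12 and 13.09 on the E13.5 germ cell arrays and 13.05, 12.48 and 12.69 on the E15.5 arrays. The non-germ arrays read 12.33 and 12.38. Every array detected it, and its groups overlapped. The means were 12.86 ± 0.24, 12.81 ± 0.52 and 12.74 ± 0.29 over the 3 stages and 12.35 ± 0.034 in non-germ cells. The stage differences in limma were -0.05 ± 0.26 (SE; adjusted p = 0.931) from E11.5 to E13.5 and -0.07 ± 0.26 (adjusted p = 0.864) from E13.5 to E15.5, so that neither passed the test. Without E15.5 replicate 2 the second of these was 0.07 (adjusted p = 0.876). The germ minus non-germ difference of 0.45 ± 0.29 did not pass either (adjusted p = 0.215). It did pass when E13.5 replicate 1, the lowest germ cell array for Dnmt1, was left out (0.75, adjusted p = 0.0247).

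Uhrf1, which delivers Dnmt1 to newly copied DNA, moved up and then partly down. Its tested probe (ILMN_2517041, NM_010931) read 12.30, 12.71 and 12.29 on the E11.5 arrays, 13.61, 13.43 and 13.62 on the E13.5 germ cell arrays and 12.88, 13.14 and 13.02 on the E15.5 arrays. The non-germ arrays read 13.38 and 13.62. The 3 germ cell stages did not overlap, with E13.5 highest, whereas the non-germ arrays lay among the E13.5 germ cell arrays. Uhrf1 rose 2.17-fold from E11.5 to E13.5 (log2 difference 1.12 ± 0.17, adjusted p = 0.00139) and fell by 0.54 ± 0.17 from E13.5 to E15.5 (adjusted p = 0.0279). The 2 steps differed from each other by -1.66 ± 0.30 (adjusted p = 0.00336), and E15.5 stayed above E11.5 by 0.58 ± 0.17 (adjusted p = 0.0165). Germ and non-germ cells of E13.5 differed by 0.05 ± 0.19 (adjusted p = 0.844). The second Uhrf1 probe (ILMN_2497581), designed on the same transcript, was at background on every array, between 4.41 and 4.73.

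The rise of Uhrf1 and the difference between its steps held in every alternative run, but the fall to E15.5 and the net rise did not. The fall lost its call with cyclic loess scaling (-0.38, adjusted p = 0.11), without E13.5 replicate 1 (-0.52, adjusted p = 0.0681) or 3 (-0.51, adjusted p = 0.0851), and without E15.5 replicate 1 (-0.47, adjusted p = 0.0792) or 3 (-0.54, adjusted p = 0.0592); the net rise lost it with median scaling (0.31, adjusted p = 0.22) and without E11.5 replicate 1 (0.51, adjusted p = 0.061) or 3 (0.51, adjusted p = 0.0612). Without E15.5 replicate 2, the fall was -0.60 (adjusted p = 0.0259) and the net rise 0.51 (adjusted p = 0.0412).

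Of the de novo enzymes, Dnmt3b changed at each step. Its tested probe (ILMN_1252310, NM_001003963) read 9.99, 9.86 and 9.84 on the E11.5 arrays, 11.43, 11.503 and 11.49 on the E13.5 germ cell arrays and 12.35, 12.34 and 12.56 on the E15.5 arrays. The non-germ arrays read 11.96 and 11.93. The 4 groups did not overlap, in the order E11.5, E13.5, non-germ, E15.5. Dnmt3b rose 2.99-fold in the first interval (1.58 ± 0.14, adjusted p = 5.23e-05) and 1.92-fold in the second (0.94 ± 0.14, adjusted p = 0.000437). The net rise was 5.74-fold (2.52 ± 0.14, adjusted p = 5.07e-07). The steps differed by -0.63 ± 0.24, which did not pass the test (adjusted p = 0.0922), so the rise was not placed in one interval more than the other. Without E15.5 replicate 2 the second step was 0.98 (adjusted p = 6e-04), the net rise 2.57 (adjusted p = 9.62e-07) and the difference between steps -0.60 (adjusted p = 0.105).

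At E13.5 the germ cells had slightly less Dnmt3b signal than the non-germ fraction, with a difference of -0.47 ± 0.16 (adjusted p = 0.0271). This call ended with median scaling (-0.35, adjusted p = 0.24) and with the authors' rescaled values (-0.20, adjusted p = 0.144). It ended too when any one of the 5 arrays of E13.5 was left out: germ cell replicate 1 (-0.45, adjusted p = 0.0568), 2 (-0.48, adjusted p = 0.0518) or 3 (-0.47, adjusted p = 0.0558), and non-germ replicate 1 (-0.46, adjusted p = 0.115) or 2 (-0.48, adjusted p = 0.0971). The other Dnmt3b probe (ILMN_3114377), with the same accession, was at background on all arrays, between 5.11 and 5.80.

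Dnmt3a was read by 2 tested probes, both designed on NM_007872, and both rose between E13.5 and E15.5. The first (ILMN_1224446) read 5.91, 6.83 and 5.65 on the E11.5 arrays, of which 1 detected it, 6.89, 6.76 and 6.35 on the E13.5 germ cell arrays and 9.99, 9.73 and 9.98 on the E15.5 arrays. The non-germ arrays read 5.37 and 5.84, and 1 of them detected it. The second (ILMN_1259562) was detected on every array and read 7.53, 7.29 and 8.01 on the E11.5 arrays, 7.12, 7.47 and 7.75 on the E13.5 germ cell arrays, 9.38, 10.39 and 9.86 on the E15.5 arrays and 11.21 and 10.84 on the non-germ arrays. For both probes the E15.5 arrays lay above all other germ cell arrays and the E11.5 and E13.5 arrays overlapped. The non-germ arrays were the lowest in mean for the first probe and the highest of all for the second.

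The first Dnmt3a probe rose 9.41-fold from E13.5 to E15.5 (3.23 ± 0.29, adjusted p = 1.77e-05) and the second 5.39-fold (2.43 ± 0.29, adjusted p = 9.52e-05). In the interval before, they differed by 0.54 ± 0.29 (adjusted p = 0.248) and -0.16 ± 0.29 (adjusted p = 0.776). For each probe the second step exceeded the first, by 2.69 ± 0.50 (adjusted p = 0.00416) and 2.59 ± 0.49 (adjusted p = 0.00468). The second probe reached its highest germ cell value in E15.5 replicate 2, the array with somatic markers, whereas the first probe had its lowest E15.5 value there. Without that array the rises were 3.35 (adjusted p = 2.78e-05) and 2.20 (adjusted p = 0.000136), and the differences between steps 2.81 (adjusted p = 0.00318) and 2.36 (adjusted p = 0.00336). Without E11.5 replicate 2, the 1 array of its group that detected the first probe, that probe's first interval passed as well (0.90, adjusted p = 0.0346).

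Against non-germ cells of E13.5 the 2 Dnmt3a probes went opposite ways. The second was lower in germ cells, by -3.58 ± 0.32 or 11.96-fold (adjusted p = 8.49e-06), a call that held in every alternative. The first was higher in germ cells, by 1.06 ± 0.32 (adjusted p = 0.0167), close to background in both groups. That call ended with cyclic loess (0.87, adjusted p = 0.0547), with the authors' values (0.23, adjusted p = 0.114), without E13.5 germ cell replicate 1 (0.96, adjusted p = 0.0521) and without non-germ replicate 1 (0.81, adjusted p = 0.147). Whether Dnmt3a is higher or lower in germ cells at E13.5 therefore depended on the probe.

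The disagreement was also measured inside each array, as the first probe's log2 value minus the second's. This difference averaged -1.48 ± 0.96, -0.78 ± 0.59 and 0.02 ± 0.64 over the 3 germ cell stages in order, and -5.42 ± 0.59 in the non-germ fraction. The non-germ arrays, at -5.83 and -5.00, lay below all 9 germ cell arrays, which ran from -2.37 to 0.61. Over the 3 germ cell stages the differences overlapped and an exact permutation test over the 1680 assignments of 9 arrays gave p = 0.107 (adjusted over 2 probe pairs, p = 0.107). Between germ and non-germ cells of E13.5 alone the gap was 4.64, with an exact two-sided p of 0.1, the smallest that 3 against 2 arrays can give. The part of each transcript that a probe matches was not used here, and the third Dnmt3a probe (ILMN_1256464, designed on the separate cDNA AK086254) was at background on all arrays, between 4.88 and 5.45.

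**Figure D2:**
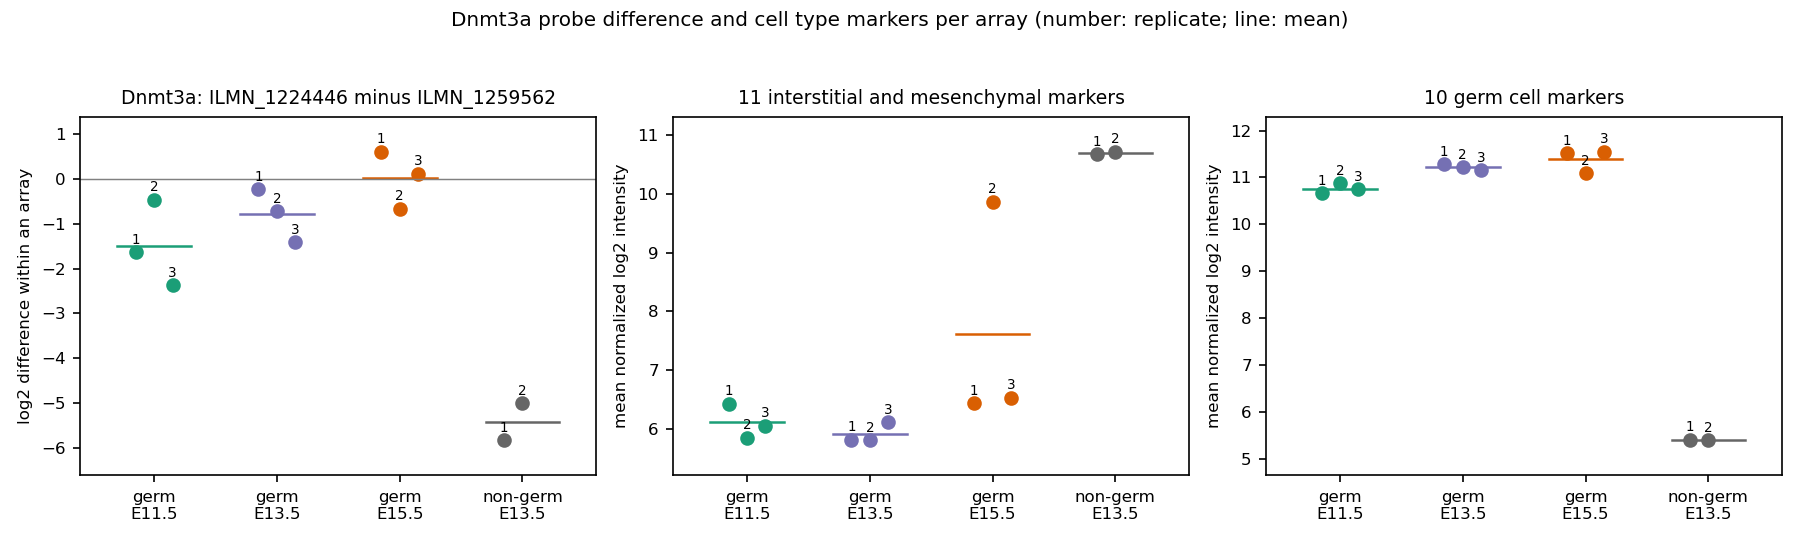
Left, log2 difference between the 2 tested Dnmt3a probes within each array; middle and right, mean normalized log2 intensity of 11 interstitial and mesenchymal and of 10 germ cell markers. Each point is 1 array, labelled with its replicate number, lines are group means, and groups are on the horizontal axis. The non-germ arrays lie at -5.83 and -5.00, below every germ cell array, and E15.5 replicate 2 carries interstitial markers at 9.87.

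RefSeq gives 3 starts to mouse Dnmt3a, and a shorter protein made from an internal start is the form known in mouse germ cells and embryonic stem cells. The 250 bases before the first and the third start are printed because the 2 probes of this gene disagreed and its known forms begin at different starts; the probes could not be assigned to either. Capitals mark CpG, the dinucleotide these enzymes methylate, and build GRCm38.p6 places them on the plus strand at chr12:3806730-3806979 and chr12:3891494-3891743.
Dnmt3a start 1: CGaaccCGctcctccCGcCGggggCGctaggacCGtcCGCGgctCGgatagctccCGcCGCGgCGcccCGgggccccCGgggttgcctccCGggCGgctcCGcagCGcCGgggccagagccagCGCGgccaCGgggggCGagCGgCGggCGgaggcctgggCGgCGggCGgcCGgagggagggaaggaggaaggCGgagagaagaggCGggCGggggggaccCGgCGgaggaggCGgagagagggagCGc
Dnmt3a start 3: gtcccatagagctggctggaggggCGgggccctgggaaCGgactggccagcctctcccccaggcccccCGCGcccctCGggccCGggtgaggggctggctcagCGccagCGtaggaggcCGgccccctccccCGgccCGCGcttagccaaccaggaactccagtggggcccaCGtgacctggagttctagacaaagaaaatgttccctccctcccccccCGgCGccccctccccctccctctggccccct
The first holds 38 CpG and the second 15. In windows of 300 bases that also take in the first 50 after the start, these counts were 46 and 18, against a median of 7 over 32851 such RefSeq windows. The Dnmt3b window held 30, and the Uhrf1 windows 12 and 33.

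Dnmt3l showed the largest differences of the 5 genes, and both of its probes were tested. ILMN_1250149 (NM_001081695) read 4.91, 4.59 and 4.77 on the E11.5 arrays, 7.15, 5.91 and 5.19 on the E13.5 germ cell arrays, 11.93, 11.71 and 12.21 on the E15.5 arrays and 4.76 and 4.68 on the non-germ arrays. ILMN_3112268 (NM_019448) read 4.62, 4.59 and 4.78, then 7.08, 4.96 and 4.63, then 12.37, 12.24 and 12.56 over the 3 stages in the same order, and 4.59 and 4.53 on the non-germ arrays. Neither probe was detected on any E11.5 or non-germ array, both were detected on E13.5 replicate 1 alone among the arrays of that day, and both were detected on all 3 arrays of E15.5.

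Since E11.5 gives only a bound, Dnmt3l was at least 57.0-fold higher at E15.5 than at E11.5 by the first probe (fitted difference 7.19 ± 0.38, adjusted p = 3.83e-07) and at least 77.4-fold by the second (7.73 ± 0.49, adjusted p = 9.1e-07), each E11.5 array being taken at the lowest signal of its detected probes. From E13.5 to E15.5 the fitted rises were 5.87 ± 0.38 (adjusted p = 2.47e-06) and 6.83 ± 0.49 (adjusted p = 4.33e-06). The second step exceeded the first by 4.54 ± 0.66 (adjusted p = 0.00115) and 5.93 ± 0.84 (adjusted p = 0.000979). These fitted sizes rest on values at background, since 1 of 3 arrays of E13.5 and 0 of 3 of E11.5 detected either probe. Both probes passed the detection filter only through the E15.5 arrays, so these adjusted p-values are no independent support. With undetected arrays taken at the same floor, a choice made after the values were seen, the E13.5 means were 6.43 and 6.41, the rises from E13.5 5.52 and 5.98, and the differences between steps 5.20 and 5.68. Without E15.5 replicate 2 the fitted rises from E13.5 were 6.01 (adjusted p = 4.98e-06) and 6.92 (adjusted p = 1.01e-05), those from E11.5 7.32 (adjusted p = 8.08e-07) and 7.81 (adjusted p = 2.18e-06), and the differences between steps 4.71 (adjusted p = 0.000874) and 6.03 (adjusted p = 0.00089).

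Between E11.5 and E13.5 the first Dnmt3l probe passed the test (1.33 ± 0.38, adjusted p = 0.039) and the second did not (0.90 ± 0.49, adjusted p = 0.255). That call rested on 1 detected array, passed in 8 of 20 alternatives and ended without E13.5 replicate 1 (0.80, adjusted p = 0.0707) and with any of 6 other arrays left out: E11.5 replicate 1 (1.41, adjusted p = 0.0789), 2 (1.26, adjusted p = 0.111) or 3 (1.33, adjusted p = 0.0891), E13.5 replicate 2 (1.41, adjusted p = 0.0778) and non-germ replicate 1 (1.31, adjusted p = 0.0562) or 2 (1.31, adjusted p = 0.0563). Against non-germ cells of E13.5 the first probe was higher in germ cells (1.36 ± 0.43, adjusted p = 0.0196), and the second gave 1.00 ± 0.54 (adjusted p = 0.146). Since only 1 germ cell array of E13.5 detected either probe, the sizes of these differences rest on values at background. The first of these calls ended with the authors' rescaled values (0.35, adjusted p = 0.0985) and without non-germ replicate 1 (1.38, adjusted p = 0.0783) or 2 (1.30, adjusted p = 0.0945), and the difference shrank to 0.84 without E13.5 germ cell replicate 1. The second passed without E13.5 germ cell replicate 3 (1.47, adjusted p = 0.0376).

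The within-array difference of the 2 Dnmt3l probes averaged 0.10 ± 0.18, 0.52 ± 0.44 and -0.44 ± 0.087 over the 3 stages in order. It differed over the stages in the exact permutation test (p = 0.00714, adjusted p = 0.0143). On 5 of the 6 arrays of E11.5 and E13.5 neither probe was detected, so the comparison set E15.5 against values at background. The call ended with the authors' values (adjusted p = 0.0571) and without E11.5 replicate 1 (-0.43, adjusted p = 0.0786) or 3 (-0.60, adjusted p = 0.05) and E15.5 replicate 1 (-0.54, adjusted p = 0.0857), 2 (-0.49, adjusted p = 0.118) or 3 (-0.58, adjusted p = 0.0571), where the values are the E15.5 minus E11.5 change of the difference, -0.54 with all arrays.

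RefSeq gives Dnmt3l 3 starts as well, and the bases before each are shown because its RNA was undetected on all arrays of E11.5 and detected on all arrays of E15.5. They lie on the plus strand of GRCm38.p6 at chr10:78042037-78042286, chr10:78049592-78049841 and chr10:78055085-78055334, again with CpG in capitals.
Dnmt3l start 1: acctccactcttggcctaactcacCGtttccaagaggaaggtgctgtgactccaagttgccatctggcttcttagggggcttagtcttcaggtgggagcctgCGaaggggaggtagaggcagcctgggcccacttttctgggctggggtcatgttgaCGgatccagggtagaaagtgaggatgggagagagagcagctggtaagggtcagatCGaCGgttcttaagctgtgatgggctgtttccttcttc
Dnmt3l start 2: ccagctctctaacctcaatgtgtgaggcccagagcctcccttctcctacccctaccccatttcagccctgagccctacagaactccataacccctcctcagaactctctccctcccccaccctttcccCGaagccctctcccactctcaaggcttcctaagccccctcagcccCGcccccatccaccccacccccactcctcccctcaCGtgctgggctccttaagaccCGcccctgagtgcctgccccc
Dnmt3l start 3: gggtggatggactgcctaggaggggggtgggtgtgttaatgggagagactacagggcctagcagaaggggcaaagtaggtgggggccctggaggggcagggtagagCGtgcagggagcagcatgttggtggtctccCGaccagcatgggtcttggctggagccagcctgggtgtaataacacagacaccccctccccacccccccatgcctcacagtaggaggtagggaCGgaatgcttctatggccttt
These hold 5, 4 and 3 CpG, and the windows of 300 bases 6, 4 and 3, below the median of 7. Counting both strands, CACGTG occurred once in the window of Dnmt3l start 2 and once in that of Dnmt3a start 3, and 7.15% of all RefSeq windows hold it. GGGCGG occurred in Dnmt3l starts 1 and 2, in every Dnmt3a, Dnmt3b and Uhrf1 window and in Dnmt1 start 3, against 35.7% of all windows. TTTCGCGC or TTTGGCGC, letters of the E2F motif, occurred in Dnmt1 start 3 and Uhrf1 start 2, against 0.813% of all windows. A match of letters is a description of the sequence only.

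**Figure D3:**
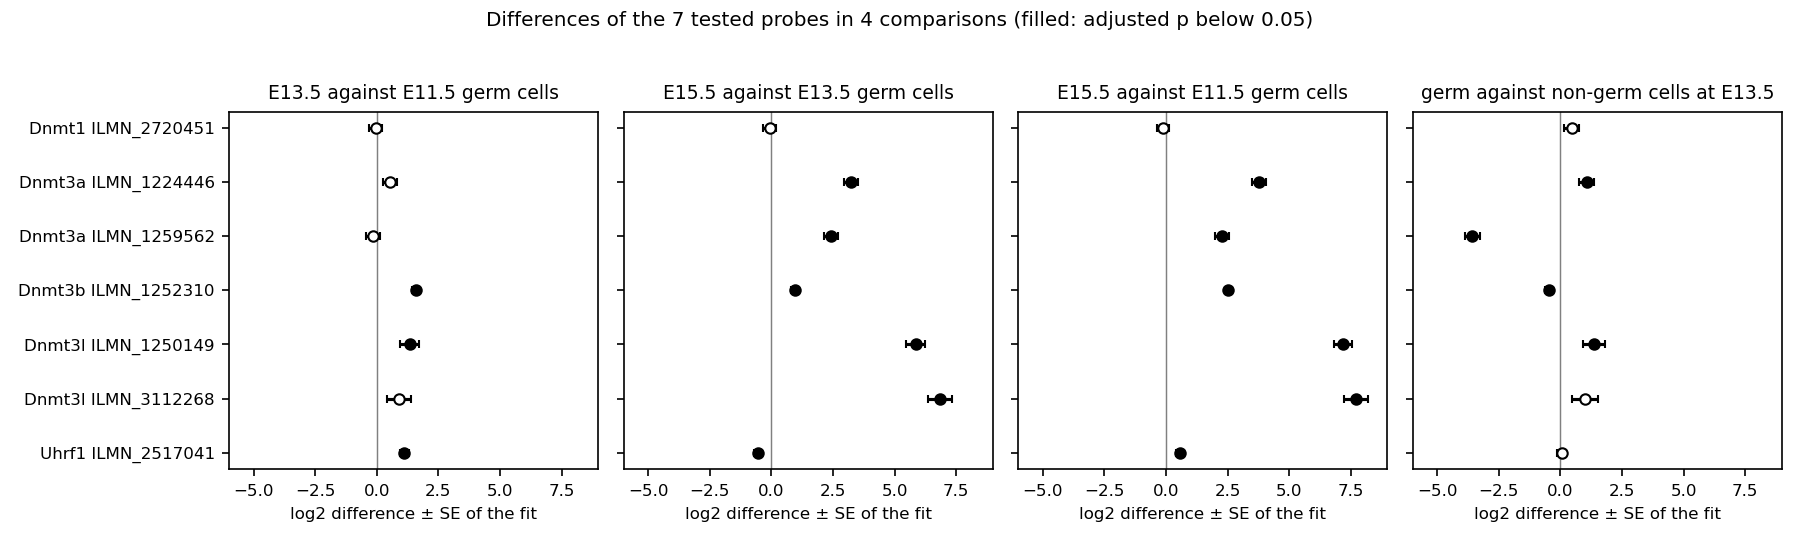
Log2 differences (horizontal axis) of the 7 tested probes in 4 comparisons, with bars for the standard error of the limma fit. Filled points passed an adjusted p below 0.05 over 21943 probes. From E13.5 to E15.5 both Dnmt3l probes lie at fitted values of 5.87 and 6.83, both Dnmt3a probes at 3.23 and 2.43, and Uhrf1 at -0.54; against non-germ cells the Dnmt3a probes lie on opposite sides of 0.

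Counted together, 3 of the 7 tested probes were higher at E13.5 than at E11.5 and 0 lower, against 8.55% and 6.74% of all 21943 tested probes. From E13.5 to E15.5, 5 were higher and 1 lower, against 17.5% and 20.8%, and from E11.5 to E15.5, 6 were higher and 0 lower, against 21.6% and 24.6%. The 3 comparisons share arrays, and a probe of one gene is no replicate of another. Both Dnmt3l probes passed the detection filter only through the E15.5 arrays, so their part in counts with E15.5 is no support. With 1 probe per gene, 3 of 5 genes were higher from E13.5 to E15.5 and 1 lower, against 20.7% each way. Between germ and non-germ cells, 2 of the 7 probes were higher and 2 lower, against 29.4% and 23.7%, so that the members' share was near the background there. The step from E13.5 to E15.5 exceeded the step before it for 4 probes, those of Dnmt3a and Dnmt3l, and was below it for 1, that of Uhrf1, against 9.16% and 11.2% of all probes. Some change over the 3 stages passed the F test for 6 of 7 probes, all but Dnmt1, against 50.7%.

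The genes whose profile over the 11 arrays was nearest to each member were ranked by the root mean square (RMS) difference of centred log2 values. For Dnmt3l (ILMN_1250149) they were Sohlh1 (0.437), Nxf2 (0.566), Nlrp4f (0.568), Tdrd9 (0.724) and Rhox10 (0.862), against a median of 3.15 over all genes. Sohlh1, a transcription factor of early spermatogonia, had group means of 5.66, 6.43, 12.17 and 5.43 from E11.5 to E15.5 and in non-germ cells. For Dnmt3b they were Mcam (0.174), Ankrd12 (0.186), Nsun4 (0.257), Itga6 (0.26) and Dab2ip (0.262), against a median of 1.14. For Uhrf1 they were Usp47 (0.0974), Cand1 (0.112), Sox12 (0.16), Rbbp6 (0.165) and Tm9sf3 (0.175), against 0.738.

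For the second Dnmt3a probe (ILMN_1259562) the nearest genes were Psd3 (0.27), Arhgef26 (0.278), Mef2c (0.29), Spsb4 (0.329) and Zfp9 (0.341), against a median RMS difference of 1.61. Mef2c, a transcription factor of muscle and vascular cells, had means of 4.91, 4.66, 6.95 and 8.34 in the same group order, highest in non-germ cells like that probe. For the first Dnmt3a probe, examined after its values were seen, the nearest with a full gene name were Abca15 (0.367), Dpep3 (0.38) and Zxdc (0.381), against a median of 1.82. Dpep3, a dipeptidase known from mouse testis, had means of 5.24, 5.38, 9.11 and 4.90, lowest in non-germ cells. The 2 probes of Dnmt3a had no gene in common among their nearest 5. The ranking included the non-germ arrays, on which the 2 probes differed most, so this restates that difference.

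Partners of maintenance methylation were 8 measured genes of 10 listed, each taken at its brightest tested probe. None passed between E11.5 and E13.5, and from E13.5 to E15.5, 5 fell and 0 rose, with a median of -0.494, against 20.7% of 11598 genes called in each direction and a median over all genes of 0.0154. Pcna, the replication clamp, fell by 1.67 ± 0.24 (adjusted p = 0.000329), Hells, a chromatin remodeler needed for DNA methylation, by 1.36 ± 0.18 (adjusted p = 0.000166), and Usp7, a deubiquitinase that stabilizes Dnmt1 and Uhrf1, by 1.33 ± 0.16 (adjusted p = 0.000111). Uhrf2, a relative of Uhrf1, fell by 0.43 ± 0.15 (adjusted p = 0.0447). At E13.5, 5 of the 8 were higher in the germ cells and 0 lower, against 30.2% and 26% of all genes. Hells differed there by 3.00 ± 0.20 (adjusted p = 1.13e-06).

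All 16 S phase genes listed were measured, and most fell between E13.5 and E15.5. From E11.5 to E13.5, 3 fell and 0 rose, against 7.29% and 9.98% of all genes. From E13.5 to E15.5, 14 fell and 0 rose, against 20.7% in each direction, with a median of -1.33. One of the 14, Ccne1, was detected on no array of either stage, which leaves 13 measured above background. Tyms, which makes thymidylate, fell by 2.14 ± 0.31 (adjusted p = 0.000356) and Mcm2, a subunit of the replicative helicase, fell by 2.07 ± 0.23 (adjusted p = 6.78e-05). The 2 that did not pass were Mcm7 (-0.30 ± 0.22, adjusted p = 0.313) and Rrm1 (-0.06 ± 0.25, adjusted p = 0.876), named, like Ccne1, after their values were seen. Over the same interval Uhrf1 fell by 0.54 and the Dnmt1 difference was -0.07, and the part of proliferation in either was not tested. Without E15.5 replicate 2, 13 S phase genes fell and 0 rose, and 5 maintenance partners fell and 1, Dmap1, rose. Those 13 still included the undetected Ccne1, while Ccne2 no longer passed (-0.64, adjusted p = 0.0632).

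Genes that guide de novo methylation to its targets, most of them piRNA pathway or histone-modifying proteins, were 17 measured of 20 listed. From E11.5 to E13.5, 7 rose and 2 fell, against 9.98% and 7.29% of all genes, and from E13.5 to E15.5, 10 rose and 2 fell, against 20.7% each way, with a median of 0.875. Tdrd9, a helicase of the piRNA pathway, rose by 4.31 ± 0.37 in the second interval (adjusted p = 1.48e-05) and Morc1, a silencer of transposons in the male germ line, by 2.76 ± 0.39 (adjusted p = 0.00029). Morc1 had fallen by 1.69 ± 0.39 in the first interval (adjusted p = 0.0135), to a group in which 1 of 3 arrays detected it, so that its net rise was 1.07 ± 0.39 (adjusted p = 0.042). Piwil4, the PIWI protein of fetal male germ cell nuclei, was detected on no array of the earlier stages or the non-germ fraction and was at least 3.40-fold higher at E15.5 than at E13.5 (adjusted p = 0.000328). Piwil4 passed the detection filter only through the E15.5 arrays, so its call and its part in the counts with E15.5 are no support. Kdm1b, a histone H3K4 demethylase required for maternal imprints in the mouse oocyte, rose by 3.59 ± 0.21 over the whole span (adjusted p = 5.64e-07). Trim28, a corepressor that protects imprints, fell by 0.94 ± 0.18 from E13.5 to E15.5 (adjusted p = 0.00171), and Setd2, which writes H3K36 trimethylation, by 0.52 ± 0.14 (adjusted p = 0.0151). The counts were the same without E15.5 replicate 2, and at E13.5, 10 of the 17 were higher in the germ cells than in the non-germ fraction and 0 lower, against 30.2% and 26% of all genes. Of those higher, Mael, Tex15, Tdrd9, Asz1 and Mov10l1 were detected on no non-germ array and passed the filter only through germ cell arrays. Mael and Piwil2 are also among the germ cell markers, so this germ against non-germ count is no test.

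Enzymes that oxidize or excise methylated cytosine, and their partners, were 9 measured of 13 listed. From E11.5 to E13.5, 0 rose and 3 fell, against 9.98% and 7.29% of all genes, with Gadd45a, a stress-induced factor linked to demethylation, down by 3.11 ± 0.26 (adjusted p = 3.89e-05). From E13.5 to E15.5, 1 rose and 3 fell, with and without E15.5 replicate 2, near the 20.7% of all genes called each way. Tet1, which oxidizes methylated cytosine, fell by 3.12 ± 0.29 (adjusted p = 2.23e-05), from a mean of 9.53 ± 0.23 to 6.41 ± 0.65. Tdg, the glycosylase that removes the oxidized bases, was detected on all arrays of E13.5 and on none of E15.5, at least 1.51-fold lower (adjusted p = 0.000845).

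Among 8 measured genes of methyl donor supply (13 listed), 2 rose and 2 fell from E13.5 to E15.5, with a median of -0.163, a share near the 20.7% of all genes called each way. Ahcy, which clears the methylation byproduct S-adenosylhomocysteine, fell by 1.43 ± 0.20 (adjusted p = 0.000256), and Shmt1, a serine hydroxymethyltransferase of folate metabolism, fell by 1.27 ± 0.22 (adjusted p = 0.00104). Mat1a was detected on no array of E13.5 and on all arrays of E15.5, at least 1.86-fold higher (adjusted p = 0.00152). It passed the detection filter only through the E15.5 arrays, so its call and its part in the count are no support. Ahcyl1, a relative of Ahcy, rose by 0.71 ± 0.16 (adjusted p = 0.00463). Among 4 measured methyl-CpG readers (7 listed), 2 rose and 1 fell in that interval, against the same 20.7%. Both sets of counts were the same without E15.5 replicate 2. Mbd1 rose by 1.04 ± 0.19 (adjusted p = 0.00168) and Mbd2 by 0.69 ± 0.25 (adjusted p = 0.0472), while Mbd3, which sits in the NuRD complex and binds methylated DNA poorly, fell by 1.10 ± 0.18 (adjusted p = 0.000708). At E13.5, 2 of these 4 readers lay above their non-germ level and 2 below it, against 30.2% and 26% of all genes. Mbd2 exceeded that level by 4.13 ± 0.28 (adjusted p = 1.3e-06) and Mbd3 by 0.63 ± 0.20 (adjusted p = 0.0197). The differences were -1.80 ± 0.22 for Mbd1 (adjusted p = 5.42e-05) and -0.56 ± 0.19 for Zbtb33 (adjusted p = 0.0294).

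Germline genes whose promoters are known to be silenced by DNA methylation in mouse somatic cells were 11 measured of 12 listed; Mael and Asz1 of this list are also in the list of guidance genes. From E11.5 to E13.5, 8 rose and 0 fell, against 9.98% and 7.29% of all genes, with a median of 0.998, and from E13.5 to E15.5, 6 rose and 1 fell, against 20.7% each way. Sycp1, a protein of the synaptonemal complex, was undetected at E11.5 and at least 4.38-fold higher at E13.5 (adjusted p = 7.45e-05). Dazl, an RNA-binding protein of germ cells, rose by 0.71 ± 0.19 in the first interval (adjusted p = 0.0269) and fell by 0.73 ± 0.19 in the second (adjusted p = 0.0102). At E13.5 all 11 were higher in the germ cells than in the non-germ fraction, where 0 of the 11 were detected on any array, against 30.2% of all genes higher, and Dazl was at least 137.2-fold higher (adjusted p = 3.15e-09). The list was chosen for silencing in somatic cells, and Dazl, Ddx4, Mael and Tdrd1 are also among the germ cell markers, so this germ against non-germ count is no test. Without E15.5 replicate 2 the counts from E13.5 to E15.5 were again 6 and 1.

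**Figure D4:**
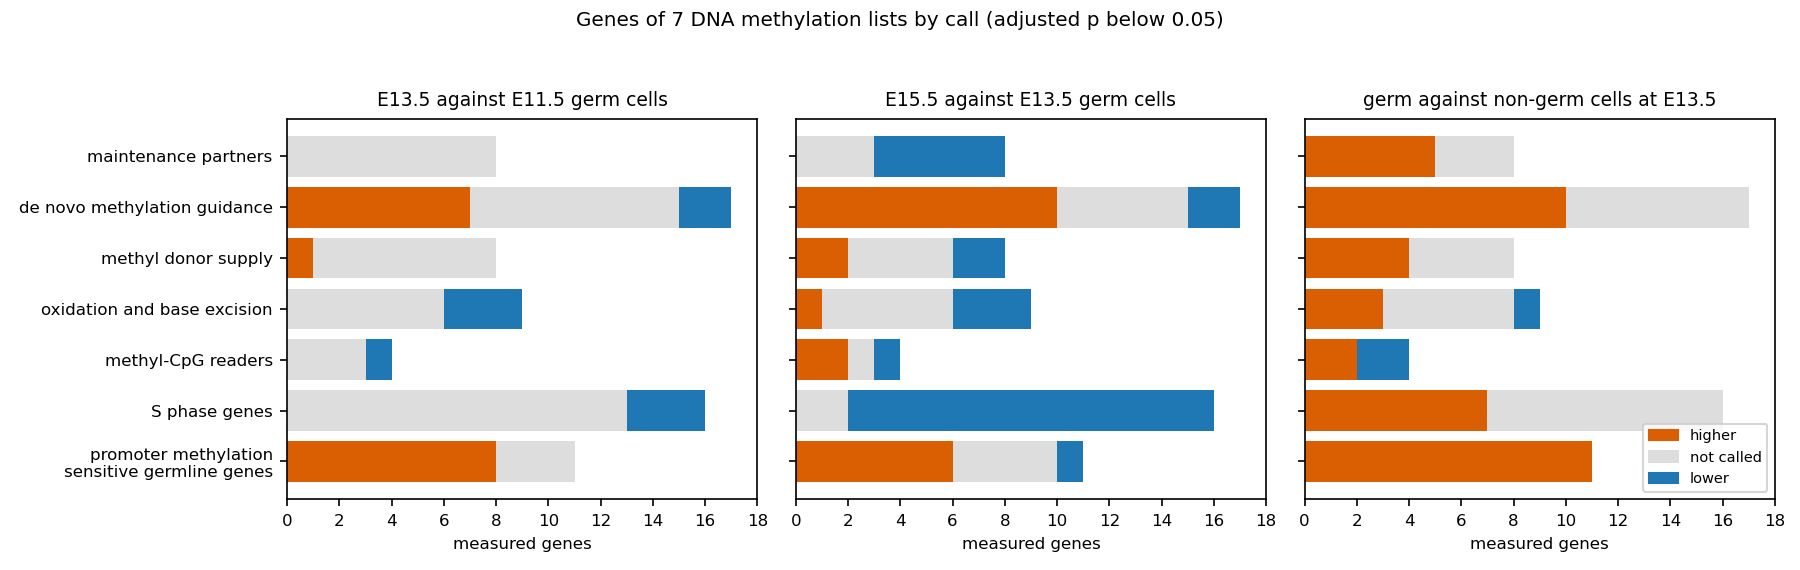
Measured genes of 7 lists (vertical axis) split by call in 3 comparisons, with the number of genes on the horizontal axis: higher, not called and lower at an adjusted p below 0.05. From E13.5 to E15.5, 14 of 16 S phase genes and 5 of 8 maintenance partners are lower, while 10 of 17 guidance genes are higher.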

How the data were processed

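RNA from sorted cells was amplified from 10 ng, biotin-labelled and hybridized, per the labels' protocols. Per the file headers, the deposited non-normalized table gives a signal intensity and a detection p-value for each probe and array; the scanner steps are not given in the sources used here. A second table by the authors holds rescaled intensity values: each array is a straight line of its own raw signals, the first array unchanged, linear and not centred, by a method not stated. Its column medians were 315.07, 326.05 and 325.53 (E11.5), 325.85, 331.48 and 328.61 (E13.5), 341.75, 316.98 and 328.12 (E15.5), and 321.86 and 318.75 (non-germ), against 230.06 to 315.07 in the non-normalized table. It served as an alternative.

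Here limma 3.58.1 in R 4.3.3 corrected the background by neqc (detection p-values, offset 16), quantile-normalized the 11 arrays and took log2. Probes detected at p below 0.01 on at least 2 arrays were kept, 21943 of 45281. One limma fit with 4 group means (7 residual degrees of freedom) covered all kept probes; tests were two-sided, adjusted by Benjamini-Hochberg over all of them and called below 0.05. Symbols came from the platform annotation: 34885 probes had 1, 18 several and 10378 no entry, and 99.8% of named probes matched the reference by Entrez number. Pathway genes took the kept probe with the highest mean (11598 genes). Probe pairs within an array were compared by exact permutation. A group with no detected array gives a bound, computed from the lowest detected signal of each array. The replicate numbers did not pair the samples. The labels call the replicates biological without stating separate litters, so p-values measure the spread between these samples. Named genes followed a rule: every member probe, the 5 nearest genes, and up to 3 largest called rises and falls of each list and its defining genes. The members and lists were chosen with earlier results of these data known, so no list is independent support. The fit and the permutation test were tested on simulated data. Alternatives were cyclic loess and median scaling, the authors' values, an offset of 50, 2 other filters, 1 probe per gene, a replicate block, fewer arrays in the fit, and each array left out. The number of arrays limits the precision. Promoter sequences are from RefSeq, GRCm38.p6, which had windows for all 5 genes.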

Additional observations from a re-analysis of the deposited data

How the results depend on the processing

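Of 683 single-probe values recomputed over 21 alternatives, 646 stayed on the same side of the threshold, 34 lost their call and 3 gained one. Of those called in the main run or the alternative, 0 reversed direction. Values called in neither could change sign, as Dnmt1 from E11.5 to E13.5 did (-0.21 to 0.25). The rises of Dnmt3a, Dnmt3b and Dnmt3l to E15.5, the first rises of Dnmt3b and Uhrf1, and the lower Dnmt3a ILMN_1259562 in germ cells kept their calls in every alternative that tested them. Both Dnmt3l probes passed the main detection filter only through the E15.5 arrays, so their kept calls are no independent support. With the authors' values, which keep the array background, the Dnmt3a and Dnmt3l rises from E13.5 shrank to 1.63, 1.37, 3.50 and 4.05. Members lower from E13.5 to E15.5 numbered 0 with cyclic loess; against non-germ cells, members higher numbered 1 with cyclic loess and 0 with the authors' values, and members lower 1 with median scaling and with the authors' values. With 1 probe per gene, all calls were 2178, 4934 and 5783 for the 3 stage comparisons (main 3357, 8414, 10145), 2837 between steps (4462), 6610 against non-germ cells (11637) and 6414 for any change (11116), fewer because fewer probes entered, and members higher were 3 from E13.5 to E15.5, 2 between steps and 1 against non-germ cells. The Dnmt3l probe pair (-0.54) lost its call with the authors' values (-0.50, adjusted p = 0.0571), and the Dnmt3a pair (1.51) passed over 4 groups (adjusted p = 0.0039), a test chosen after the non-germ difference was seen and no support for it; the causes were not tested. The share of calls that were higher moved from 45.7% to 57.5% with cyclic loess for E13.5 to E15.5, from 55.3% to 41.8% against non-germ cells and from 45.1% to 56.7% between steps, where the median over all probes moved from -0.043 to 0.08, from 0.16 to -0.06 and from -0.045 to 0.10; with median scaling the second-interval median was -0.15 and its share 36.6%, and between steps -0.18 and 36.4%.

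Leaving out each array in turn, all calls ranged from 2174 (without E13.5 replicate 1) to 4471 for E11.5 to E13.5 and from 2466 (without E13.5 replicate 3; 2490 without replicate 2) to 5385 between steps; members lower from E13.5 to E15.5 ranged from 0 to 1, members higher against non-germ cells from 0 to 3 and lower from 1 to 2. The pair values ranged from 1.06 to 2.03 for Dnmt3a, called without E11.5 replicate 2 (adjusted p = 0.0464), and from -0.60 to -0.43 for Dnmt3l. A lone remaining non-germ array was assumed to vary like the other groups. Same-numbered arrays deviated together at r = -0.101 to 0.106, with 2 of 15 pairs over 0.1 and 4 of 11 arrays closest to their own number. A replicate block gave 3050, 8057, 9909, 4003, 11087 and 10740 calls for the 3 stage comparisons, the steps, germ against non-germ cells and any change, moved no count of members, and ended the Dnmt3l pair's call (-0.54, adjusted p = 0.111). Values near background (Dnmt3l at E11.5, ILMN_1224446 in non-germ cells) are limited by signal over background.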
